A study of Mus musculus with 12 samples.

Results

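The unfolded protein response of the endoplasmic reticulum (ER), the heat shock response of the cytosol and the mitochondrial chaperone and protease system were described through 44 genes in liver and gastrocnemius, a calf muscle, of mice homozygous for Mars2 R135W and of wild-type (WT) mice. The product of Mars2 loads methionine onto its tRNA in mitochondria, and R135W is a missense change in it. The 44 genes were taken by symbol from a list of chaperones, folding enzymes, degradation factors and proteases. They are 18 ER genes, 12 cytosolic genes and 14 mitochondrial genes, of 24062 genes in the count tables, and all 44 had enough counts to be tested in every comparison. Poly(A) RNA was sequenced from both tissues of 6 female C57BL/6N mice on chow, which gave 4 groups of 3 libraries. These were gastrocnemius R135W (animals 5, 7 and 12), gastrocnemius WT (animals 6, 8 and 9), liver R135W (animals 5, 7 and 12) and liver WT (animals 6, 8 and 9). R135W animals 5, 7 and 12 were 9.0, 7.4 and 8.6 weeks old, and WT animals 6, 8 and 9 were 9.0, 9.0 and 7.4 weeks old. Replicates are separate animals. The variant is present in every cell of the animal, so direct effects in hepatocytes or muscle fibres and effects of the rest of the body cannot be told apart.

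Total counts per library were 23895670 to 28480863 in gastrocnemius R135W, 23992591 to 28669346 in gastrocnemius WT, 21513860 to 30460237 in liver R135W and 20751583 to 26275128 in liver WT. Animals of a group differed by more than counting error, with a chi-squared per degree of freedom of 8.07 to 17.8 between muscle libraries of a group and 41.7 to 118 between liver libraries. Levels are CPM, counts scaled to library size with TMM factors over all 12 libraries, and values in sets of 3 follow the animals in the order given above. The tissue labels held up against marker genes: 8 muscle fibre markers summed to 134547 to 180342 CPM in gastrocnemius and 0.754 to 1.75 CPM in liver, and 8 hepatocyte markers to 0.46 to 42.3 CPM in gastrocnemius and 76968 to 94629 CPM in liver. Mars2 itself stood at 10.6, 9.49 and 8.88 CPM in R135W muscle, against 12.8, 10.9 and 12 CPM in WT muscle, and at 2.6, 2.4 and 3.63 CPM in R135W liver, against 2.24, 2.5 and 3.4 CPM in WT liver. A missense change need not alter the level of its RNA, so these values do not check the genotype labels.

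Each compartment keeps its own folding machinery and its own way of calling for more of it. In the ER, BiP (Hspa5) and its partners fold secreted and membrane proteins. When unfolded protein accumulates there, the sensors IRE1, PERK and ATF6 act on the transcription factors XBP1, ATF4 and cleaved ATF6, which raise chaperone and degradation genes through promoter sequences called ER stress response elements. In the cytosol, unfolded protein releases heat shock factor HSF1, which binds inverted repeats of GAA in the promoters of heat shock genes. In mitochondria, HSP60 and HSP10 (Hspd1 and Hspe1) fold imported proteins, mitochondrial HSP70 (Hspa9) pulls them through the import pore, and the LON, CLPXP and membrane-bound AAA proteases remove those that fail. Liver secretes most plasma proteins and has an extensive ER, while muscle fibres rely on small heat shock proteins that guard the contractile filaments.

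The promoters were searched for exact matches to the textbook response elements. A gene without a match may hold a variant of an element that this search does not find. RefSeq promoter windows of GRCm38.p6, 250 bases before to 50 bases after the start site, were found for 36 of the 44 genes, 41 windows in all. The ER stress response element, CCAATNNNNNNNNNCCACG on either strand, was in the windows of 8 of 16 ER genes, 0 of 9 cytosolic genes and 0 of 11 mitochondrial genes, and in 0.119% of 32851 mouse promoter windows. The matches follow from 5′ to 3′ on the strand that reads CCAAT first, with the CCAAT and CCACG ends in capitals, since these ends are what the element fixes and the 9 bases between them differ from gene to gene.
Hspa5: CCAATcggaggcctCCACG
Hsp90b1, distal: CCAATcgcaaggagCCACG
Hsp90b1, proximal: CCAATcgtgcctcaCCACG
Pdia6: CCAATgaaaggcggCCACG
Calr: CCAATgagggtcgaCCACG
Canx: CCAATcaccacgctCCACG
Dnajc3: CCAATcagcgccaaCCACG
Creld2: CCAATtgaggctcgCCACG
Syvn1: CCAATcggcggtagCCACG
The nearest to its start site was that of Syvn1, which begins 44 bases before it, followed by Hspa5 at 65 bases, and the farthest was the distal match of Hsp90b1 at 212 bases. The pair in Hsp90b1 lie on opposite strands. A match is a run of letters and was not tested for binding.

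The second form of the element, ATTGGNCCACG, was found in the windows of Herpud1, 52 bases before the start, and Dnajb11, just after it, and in 0.0365% of all windows. The heat shock element searched, GAANNTTCNNGAA on either strand, was in the windows of the cytosolic genes Chordc1 and Hsph1 and of the mitochondrial genes Hspd1 and Hspe1, against 0.603% of all windows. The other cytosolic genes with a window, Hspa1a, Hspa1b, Dnajb1 and Hspb1 among them, had no exact match. In Chordc1 there were 3 matches that overlap each other. Hspd1 and Hspe1 are neighbours transcribed away from each other, and their matches are the same 2 overlapping runs on chromosome 1 (chr1:55088059-55088071 and chr1:55088064-55088076). Capitals below mark the fixed bases of each motif.
Herpud1, second form: ATTGGgCCACG
Dnajb11, second form: ATTGGcCCACG
Chordc1, heat shock: GAAcgTTCggGAA
Hsph1, heat shock: GAActTTCcaGAA
Hspd1 and Hspe1, heat shock: GAAggTTCtaGAA
The XBP1 site TGACGTGG was in 0 of the 36 genes' windows, against 0.676% of all windows, which says only that these letters are not in these windows.

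Across the windows the single box CCAAT was in 15 of 16 ER genes, 5 of 9 cytosolic genes and 5 of 11 mitochondrial genes, against 37.4% of all windows. Whole windows are given for the 3 ER genes on which the genotype comparisons turn, with any match to either form of the ER element in capitals. Herpud1 holds the second form, Dnajc3 the first, and Dnajb9 neither.
Herpud1 (chr8:94386179-94386478, plus strand): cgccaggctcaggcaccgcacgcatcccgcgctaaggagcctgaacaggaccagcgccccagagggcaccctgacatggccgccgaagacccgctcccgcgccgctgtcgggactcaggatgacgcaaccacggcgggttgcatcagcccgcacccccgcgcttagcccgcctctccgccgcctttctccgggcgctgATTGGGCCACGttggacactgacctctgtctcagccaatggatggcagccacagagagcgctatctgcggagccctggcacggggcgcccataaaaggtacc
Dnajc3 (chr14:118937682-118937981, plus strand): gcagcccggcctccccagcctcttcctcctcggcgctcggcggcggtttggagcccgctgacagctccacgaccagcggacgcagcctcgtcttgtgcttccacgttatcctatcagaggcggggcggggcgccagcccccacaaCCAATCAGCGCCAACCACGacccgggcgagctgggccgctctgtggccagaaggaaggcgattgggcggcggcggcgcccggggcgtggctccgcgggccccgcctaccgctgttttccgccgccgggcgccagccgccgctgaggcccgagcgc
Dnajb9 (chr12:44210019-44210318, minus strand): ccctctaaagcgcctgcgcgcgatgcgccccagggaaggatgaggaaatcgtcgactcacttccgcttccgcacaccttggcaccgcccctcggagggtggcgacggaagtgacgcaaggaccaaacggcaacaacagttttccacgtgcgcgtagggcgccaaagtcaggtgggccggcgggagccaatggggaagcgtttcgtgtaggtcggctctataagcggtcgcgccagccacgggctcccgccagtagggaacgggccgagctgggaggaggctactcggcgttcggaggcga

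The first question put to the expression values was how the 3 systems differ between muscle and liver when the variant is absent. ER genes were lower in muscle throughout, cytosolic genes split between muscle and liver, and mitochondrial genes split as well but over a narrower range, from -1.06 to 1.43 on the log2 scale. By edgeR's quasi-likelihood test on all 12 libraries, at a Benjamini-Hochberg adjusted p under 0.05 over all genes, 39 of 44 members differed between WT gastrocnemius and WT liver, 10 higher and 29 lower in muscle. Of all 15414 genes tested 82.1% differed, 41.2% higher and 40.9% lower, so the count as a whole is near what any gene gives in these tissues, while its direction is not evenly divided. RNA was taken from whole tissue, where fewer cells of a type and less RNA per cell cannot be told apart.

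All 18 ER genes were called lower in WT muscle, with a median log2 difference of -2.30, against 0.00 over all genes tested. Edem1, which hands misfolded glycoproteins to degradation, had the largest difference, at 8.47, 8.44 and 8.82 CPM in WT muscle, against 174, 214 and 219 CPM in WT liver, a log2 difference of -4.56 (SE 0.12). Pdia4, a disulfide isomerase, gave 10.5, 11.1 and 10.5 CPM in WT muscle and 181, 154 and 196 CPM in WT liver, a log2 difference of -4.05 (SE 0.12). Sdf2l1, a partner of the BiP cycle, stood at 3.65, 3.17 and 2.22 CPM in WT muscle, against 31.9, 14.4 and 27.4 CPM in WT liver (-3.03, SE 0.29). In these 3 genes every muscle library lay below every liver library. The smallest difference was that of Dnajb9, the BiP cochaperone ERdj4, at 44.7, 45.1 and 40.5 CPM in WT muscle and 44.6, 50.8 and 66.8 CPM in WT liver. Its groups overlap, its adjusted p was 0.0475, and with the animal as a replicate block the call was lost (adjusted p = 0.077 in edgeR).

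Among cytosolic genes 6 were higher and 5 lower in WT muscle. Cryab, the small heat shock protein alphaB-crystallin, reached 456, 498 and 501 CPM in WT muscle, against 5.31, 3.13 and 2.89 CPM in WT liver, a log2 difference of 7.01 (SE 0.24). Its kin Hspb1 gave 60.2, 66.1 and 69.7 CPM in WT muscle and 14.5, 6.51 and 8.23 CPM in WT liver (2.75, SE 0.28). Bag3, the cochaperone that links small heat shock proteins and HSP70 to autophagy, stood at 105, 131 and 131 CPM in WT muscle and 28.8, 28.5 and 30.7 CPM in WT liver (2.06, SE 0.15). In all 3 genes every WT muscle library lay above every WT liver library. Also higher in WT muscle were Hsph1 by 0.82 (SE 0.18), Chordc1 by 0.37 (SE 0.088) and Hspa1a, whose counts are shared with a near-identical copy.

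Lower in WT muscle by the largest amounts were 3 other cytosolic genes. The J-domain protein gene Dnaja1 had 59.9, 51.7 and 53.1 CPM in WT muscle and 211, 219.6 and 298 CPM in WT liver (-2.14, SE 0.14). Dnajb1, the J-domain partner of inducible HSP70, gave 8.55, 8.08 and 6.9 CPM in WT muscle and 26.7, 25 and 30.5 CPM in WT liver (-1.80, SE 0.12). Hsp90aa1, the stress-inducible cytosolic HSP90, gave 43.5, 40.4 and 40.3 CPM in WT muscle and 102, 80.4 and 98.3 CPM in WT liver (-1.18, SE 0.12). All 3 were lower in every WT muscle library than in any WT liver library. Hspa8, the constitutive HSP70, was the only cytosolic member that was not called, at 989, 991 and 989 CPM in WT muscle and 962, 1005 and 1390.1 CPM in WT liver (-0.18, SE 0.15, adjusted p = 0.288 in edgeR).

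Of the mitochondrial genes 4 were higher and 6 lower in WT muscle. The folding pair of the matrix was lower: Hspe1 gave 67.5, 60.2 and 52.8 CPM in WT muscle and 117, 128 and 133 CPM in WT liver (-1.06, SE 0.098). Its partner Hspd1 gave 217, 196 and 198 CPM in WT muscle and 309.8, 405 and 391 CPM in WT liver (-0.85, SE 0.11). Clpp, the proteolytic core of CLPXP, was lower too, at 25.3, 28.4 and 25.8 CPM in WT muscle and 55.9, 41.9 and 47.7 CPM in WT liver (-0.87, SE 0.10), and so were Clpx, Grpel1 and Lonp1. Higher were 3 genes of inner membrane proteases and Hspa9.

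Spg7, a subunit of the m-AAA protease, had 121, 136 and 126 CPM in WT muscle and 49.9, 42 and 50.5 CPM in WT liver (1.43, SE 0.093). Oma1, the stress-activated metalloprotease of the inner membrane, had 24.3, 24.4 and 24.5 CPM in WT muscle and 11.6, 13.2 and 14.1 CPM in WT liver (0.91, SE 0.10). Afg3l2, the partner of Spg7, was higher by 0.26 (SE 0.083), while the i-AAA protease gene Yme1l1, also of the inner membrane, was at -0.0024 (SE 0.10) and was not called. The import motor gene Hspa9 gave 506, 498 and 453 CPM in WT muscle and 375, 416 and 408 CPM in WT liver, or 0.28 on the log2 scale (SE 0.11, adjusted p = 0.0307 in edgeR). That call was lost with the animal as a replicate block in edgeR (adjusted p = 0.0737) and without muscle WT 6, muscle WT 8 or liver WT 6 (adjusted p = 0.0807 to 0.0918).

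The same tissue pattern was present in R135W animals. There 38 of 44 members were called between R135W gastrocnemius and R135W liver, 10 higher and 28 lower in muscle, against 82.1% of all genes (41.1% higher and 41% lower). Of these, 37 were among the 39 called in WT, with the same direction. Dnajb9 (adjusted p = 0.0548) and Hspa9 (adjusted p = 0.642) were called in edgeR in WT and not in R135W animals, and Dnaja3 (adjusted p = 0.00321) in R135W and not in WT animals. No interaction of genotype and tissue was called for any member in edgeR, so a difference in effect between genotypes was not shown for these 3 genes.

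**Figure D1:**
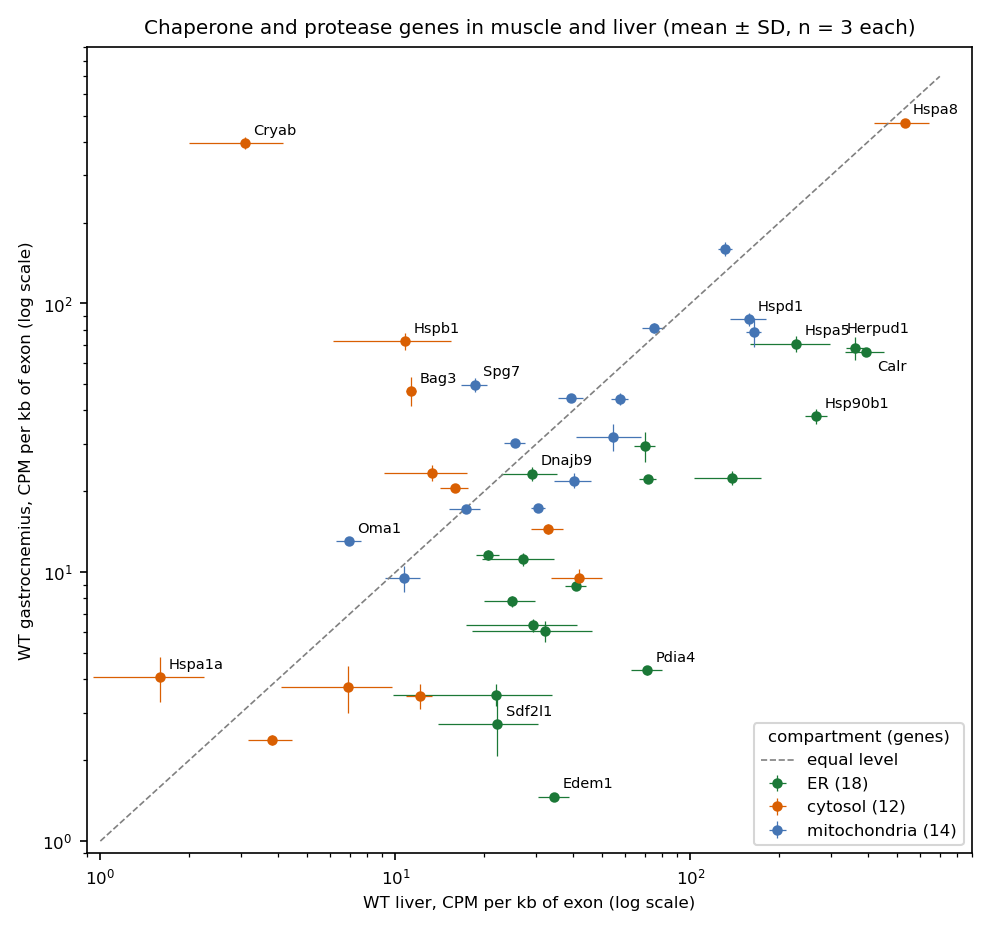
Level of each of the 44 genes in WT gastrocnemius (vertical axis) and WT liver (horizontal axis), as CPM per kb of exon on log scales; points are means and bars SDs of 3 animals, coloured by compartment, and the dashed line marks equal levels. The 18 ER genes lie below the line, Cryab lies far above it at 395 CPM per kb in muscle and 3.08 in liver, and the mitochondrial genes lie near it.

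Counts divided by exon length allow levels to be set between genes. In WT muscle mean levels of the 44 genes ran from 1.46 CPM per kb (Edem1) to 470.3 CPM per kb (Hspa8), and in WT liver from 1.6 CPM per kb (Hspa1a) to 532 CPM per kb (Hspa8). The highest in WT muscle after Hspa8 were Cryab at 395 ± 20.3 CPM per kb, Hspa9 at 159.6 ± 9.5 and Hspd1 at 87.3 ± 5.1 CPM per kb (SD, n = 3). In WT liver they were Calr at 394 ± 59.5 CPM per kb, Herpud1 at 361 ± 25.6 and Hsp90b1 at 267 ± 22.6 CPM per kb. Of the 43 neighbouring pairs in each order, 27 in WT muscle and 37 in WT liver overlapped between animals, so most ranks next to each other do not differ beyond the spread.

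The compartments took different shares of the summed RNA of the members in each tissue. Abundant chaperones outside the member list, such as the cytosolic Hsp90ab1 and the ER gene P4hb, are not in these sums. The cytosolic sums rest mostly on few genes. In WT muscle Hspa8 (mean 470 CPM per kb) and Cryab (395) made up most of a mean cytosolic sum of 1067 CPM per kb. In WT liver Hspa8 (532) made up most of 685 CPM per kb. In muscle the ER genes made up 18.4 ± 0.656% of the summed CPM per kb in R135W animals and 18.8 ± 0.433% in WT animals, and the cytosolic genes 50.6 ± 0.41% in R135W and 49.4 ± 1.36% in WT (SD, n = 3 each). In liver the ER genes made up 52.0 ± 1.24% in R135W and 55.4 ± 2.4% in WT, and the cytosolic genes 19.3 ± 2.04% in R135W and 20.1 ± 1.88% in WT. Mitochondrial genes took 31 ± 0.677% in R135W and 31.8 ± 0.98% in WT muscle. In liver they took 28.7 ± 2.05% in R135W, from 27.3 to 31.1%, and 24.5 ± 2.41% in WT, from 22.6 to 27.2%, ranges that all but touch.

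Related chaperones that work in different compartments differed between the tissues by different amounts. In the HSP70 family, ER Hspa5 stood at 70.8 ± 4.79 CPM per kb in WT muscle and 228 ± 68.6 in WT liver, cytosolic Hspa8 at 470.3 ± 0.481 and 532 ± 112, and mitochondrial Hspa9 at 159.6 ± 9.5 and 131 ± 7.12. In the HSP90 family, ER Hsp90b1 stood at 38.1 ± 2.34 CPM per kb in WT muscle and 267 ± 22.6 in WT liver, cytosolic Hsp90aa1 at 14.5 ± 0.638 and 32.9 ± 4.08, and mitochondrial Trap1 at 81.2 ± 3.76 and 75 ± 6.27. Among these 3 HSP70 genes Hspa5 was the lowest in WT muscle, and among these 3 HSP90 genes Trap1 was the highest in WT muscle and Hsp90b1 in WT liver. Other genes of the families, such as the cytosolic Hsp90ab1 and Hspa1a, were not ranked with them.

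**Figure D2:**
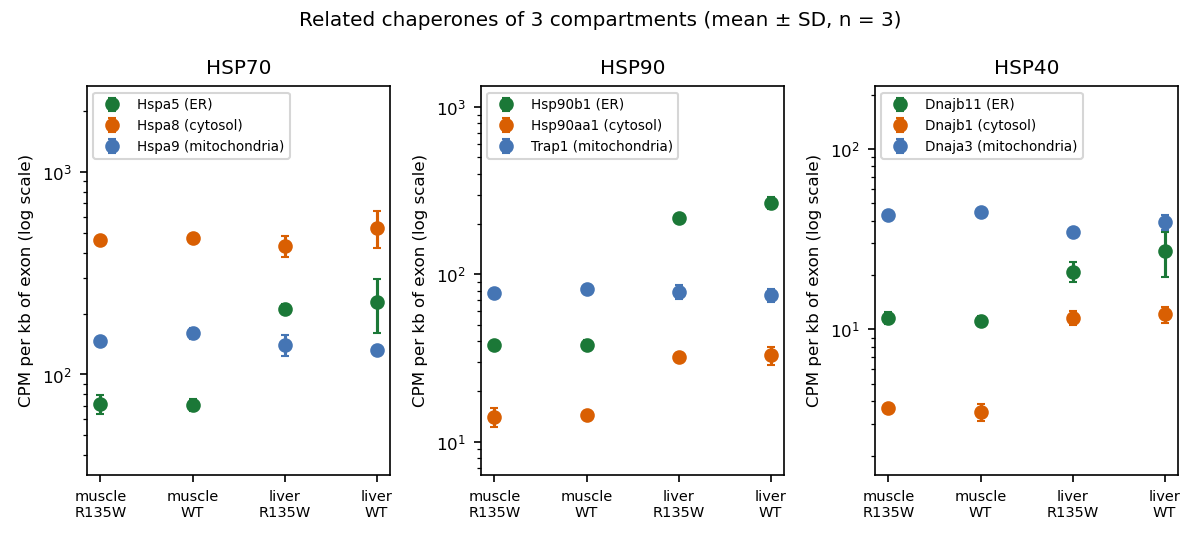
CPM per kb of exon (log scale) of an ER, a cytosolic and a mitochondrial member of each of the HSP70, HSP90 and HSP40 families in the 4 groups; points are means and bars SDs of 3 animals. The ER members Hspa5, Hsp90b1 and Dnajb11 are each lower in muscle than in liver, the mitochondrial members keep a similar level in both tissues, and R135W and WT points lie close together.

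In liver the question was whether R135W changes any of the 3 systems. No member passed, and the ER genes stood mostly somewhat below WT. By edgeR's quasi-likelihood test on the 6 liver libraries, 0 of 44 members were called at an adjusted p under 0.05, where 3.28% of 13935 genes were. At an unadjusted p under 0.05 stood 4 members, 1 higher and 3 lower, against 17.6% of all genes (10.8% higher and 6.75% lower), a smaller share than that of genes at large. DESeq2 called 2 members, where it called 5.6% of all genes, and limma-voom called 0.

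The direction of the ER genes was uneven: 17 of 18 had a negative log2 fold change in R135W liver, with a median of -0.27, against -0.01 over all genes tested. The 12 cytosolic genes had a median of -0.069 with 9 negative, and the 14 mitochondrial genes a median of -0.00 with 7 negative. These are counts and medians without a test. WT 9 had the highest liver level of the 6 animals for 12 of 18 ER genes and R135W 12 the lowest for 7. Left out in turn, single livers moved the ER median between -0.40 (without WT 8) and -0.12 (without WT 9), and it was -0.16 without R135W 12. The cytosolic median moved between -0.20 (without WT 8) and 0.00051 (without WT 9), so its sign rests on WT 9.

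Herpud1, an ER membrane protein that organises the degradation complex (chr8:94386500-94395358, mm10), had the largest ER change, at 366, 419 and 559.6 CPM in R135W liver, against 635, 665 and 729 CPM in WT liver. All R135W livers lay below all WT livers, with R135W 12 nearest to them. The log2 fold change was -0.60 (SE 0.17), with a p of 0.00771 and an adjusted p of 0.119 in edgeR. DESeq2 (adjusted p = 0.0134) and edgeR on all 12 libraries (adjusted p = 0.0275) called it, as did edgeR without R135W 12 (adjusted p = 0.0463). The fit of all 12 libraries shares its estimate of spread between the tissues, and livers varied more between animals than muscles. Its p-values for liver can therefore be too low.

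Dnajc3, the BiP cochaperone P58IPK that also restrains the kinase PERK (chr14:118937932-118981702), gave 149.9, 164 and 162 CPM in R135W liver and 223, 192 and 221 CPM in WT liver. The groups were apart, with close values within each. Its log2 fold change was -0.43 (SE 0.12), not called in edgeR (adjusted p = 0.108) and called by DESeq2 (adjusted p = 0.0278). The edgeR fit on all 12 libraries called it too (adjusted p = 0.0159), with the same limit as for Herpud1. Hsp90b1, the ER form of HSP90, gave 627, 585 and 591 CPM in R135W liver and 757, 667 and 787 CPM in WT liver, also apart, at -0.30 (SE 0.13, adjusted p = 0.289 in edgeR).

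Other ER genes overlapped between R135W and WT livers. Hspa5, the usual readout of ER stress, gave 583, 558 and 520.2 CPM in R135W liver and 537, 454 and 798 CPM in WT liver, so that both the lowest and the highest of the 6 were WT. Creld2, a target of the ER response, showed the same pattern with 33, 23.7 and 19.7 CPM in R135W liver and 28.9, 13.9 and 46.7 CPM in WT liver. Xbp1, the transcription factor itself, gave 163, 154 and 114 CPM in R135W liver and 148, 152 and 173 CPM in WT liver. The counts do not separate its spliced from its unspliced form. The coefficient of variation of ER genes had a median of 7.34% among R135W and 5.87% among WT muscles, and of 13.4% among R135W and 17.2% among WT livers.

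The remaining ER genes lay between -0.38 and 0.18 in liver. Dnajb11, the BiP cochaperone ERdj3, had 70.5, 74.7 and 57.9 CPM in R135W liver and 106, 60.2 and 96.9 CPM in WT liver (-0.38, SE 0.21). Of the lectin chaperones that hold glycoproteins, Calr had 564, 734 and 561 CPM in R135W liver and 892, 664 and 743 CPM in WT liver (-0.31, SE 0.18), and Canx stood at -0.14 (SE 0.13). Syvn1, the ubiquitin ligase HRD1, was the single ER gene with a positive value, 0.18 (SE 0.22), and its adaptor Sel1l stood at -0.12 (SE 0.12). Manf, a secreted ER stress protein, gave 66.5, 63.3 and 40.7 CPM in R135W liver and 66.6, 42.5 and 104 CPM in WT liver, and Hyou1, the exchange factor of BiP, 144, 117 and 95.8 CPM in R135W liver and 124, 80 and 186 CPM in WT liver. In all of these the groups overlap.

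**Figure D3:**
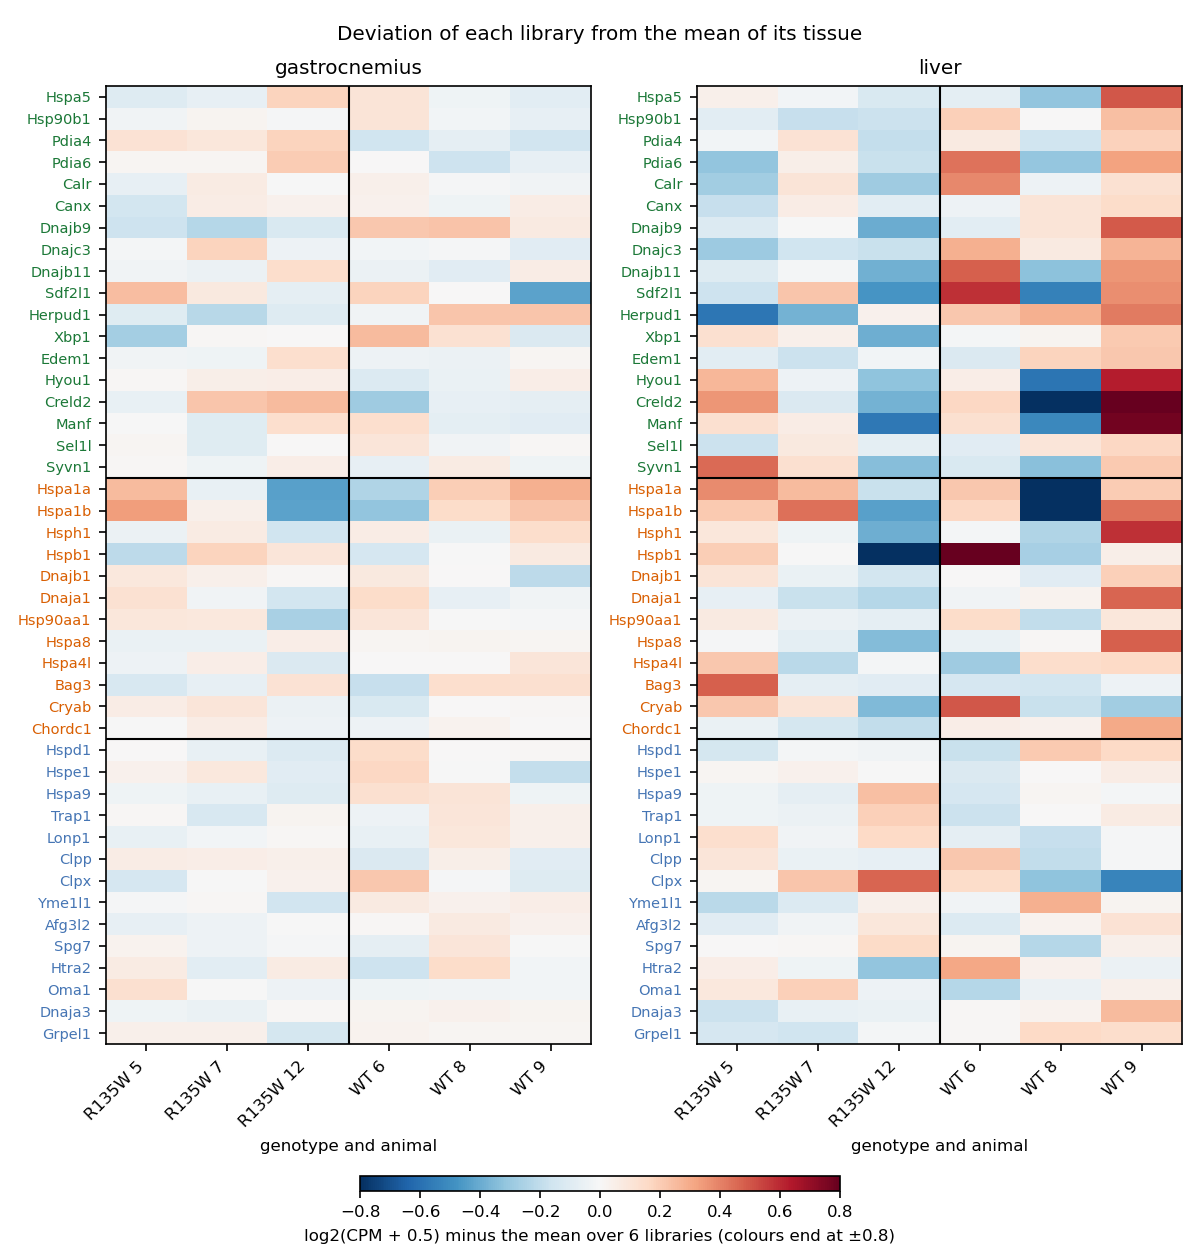
Deviation of each library from the mean of the 6 libraries of its tissue, as log2(CPM + 0.5), for the 44 genes (rows, by compartment) and the animals (columns, R135W left of WT) in gastrocnemius and liver; red is above and blue below the mean. Liver of WT 9 is red for most ER genes and liver of R135W 12 blue for most ER and cytosolic genes, while Herpud1 and Dnajb9 separate the genotypes in muscle.

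Cytosolic and mitochondrial genes in liver gave small differences. Chordc1, an HSP90 cochaperone, stood at 30.7, 28.8 and 27.7 CPM in R135W liver and 33.1, 32.6 and 39.5 CPM in WT liver (-0.28, SE 0.12, adjusted p = 0.276 in edgeR). Dnaja1 stood at 205, 190.4 and 184 CPM in R135W liver and 211, 219.6 and 298 CPM in WT liver (-0.34, SE 0.16, adjusted p = 0.308 in edgeR). Both were lower in every R135W liver, but without WT 9 Chordc1 stood at -0.18 and Dnaja1 at -0.16. The small heat shock protein genes were scarce in liver and uneven: Hspb1 gave 9.15, 7.92 and 4.33 CPM in R135W and 14.5, 6.51 and 8.23 CPM in WT (-0.46, SE 0.35), and Cryab 4.28, 3.91 and 2.72 CPM in R135W and 5.31, 3.13 and 2.89 CPM in WT (-0.064, SE 0.28). Bag3 gave 44.3, 30.1 and 29.7 CPM in R135W liver and 28.8, 28.5 and 30.7 CPM in WT liver, where R135W 5 alone stood clearly above the rest. Hspa8 overlapped, at 995, 949 and 787 CPM in R135W liver and 962, 1005 and 1390.1 CPM in WT liver (-0.30, SE 0.19), and its log2 fold change was -0.12 without WT 9.

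Among mitochondrial genes Clpx, the unfoldase that feeds CLPP (chr9:65294260-65330658), had the largest change, with 184, 212 and 251.3 CPM in R135W liver and 201, 146 and 126 CPM in WT liver. The groups overlap through WT 6, and the log2 fold change of 0.45 (SE 0.19) was not called in edgeR (adjusted p = 0.278). Grpel1, the nucleotide exchange factor of HSPA9, gave 86.1, 84.5 and 93.5 CPM in R135W liver and 95.3, 106 and 104 CPM in WT liver (-0.22, SE 0.11, adjusted p = 0.333 in edgeR). Dnaja3, its J-domain partner, gave 86.4, 93.2 and 93.8 CPM in R135W liver and 98, 99.1 and 116 CPM in WT liver (-0.20, SE 0.12, adjusted p = 0.411 in edgeR). These 2 genes were lower in every R135W liver, though Dnaja3 stood at -0.12 without WT 9. The core stress markers of mitochondria, Hspd1 at -0.14 (SE 0.14), Hspe1 at 0.025 (SE 0.11) and Lonp1 at 0.17 (SE 0.12), did not separate. The remaining proteases lay between -0.21 for Htra2, a protease of the intermembrane space, and 0.15 for Oma1, with SEs of 0.15 and 0.13. In all, 7 members were apart and lower in R135W liver and 0 apart and higher, against 9.54% and 14.1% of all genes.

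Other measures differed between the same livers. Markers of macrophages summed to 918 to 994 CPM in R135W liver, against 326 to 532 CPM in WT liver, with 10 of 11 called higher and none of the 11 at 0. Markers of hepatocytes summed to 76968 to 83609 CPM in R135W and 92935 to 94629 CPM in WT, with 0 of 8 called. Most of that sum is Alb, at 52294, 54307 and 58016 CPM in R135W liver and 65341, 67836 and 65119 CPM in WT liver. Of the 8 markers 6 had a negative and 2 (Cps1 and Tat) a positive log2 fold change. Of 9 circadian clock genes 2 were called higher (Arntl and Npas2), and 5 were lower at an unadjusted p under 0.05, with sums of 253 to 342 CPM in R135W and 354 to 580 CPM in WT. Their part in the ER values was not tested. The labels give no time of sampling.

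The ER pathway beyond the 44 genes leaned the same way in liver. Of 27 other genes of ER folding and degradation 25 were negative in R135W liver with a median of -0.18, and 0 were called in edgeR, 10 being lower at an unadjusted p under 0.05, against 6.75% of all genes. Serp1, which stabilises membrane proteins at the translocon, had the smallest p of the list, with 158, 180.1 and 122 CPM in R135W liver and 271, 211 and 229.7 CPM in WT liver (-0.64, SE 0.17, adjusted p = 0.0997 in edgeR). Derl3, a degradation factor chosen after its values were seen, had the largest change, with 0.669, 1.65 and 0.484 CPM in R135W liver and 10.9, 1.86 and 2.53 CPM in WT liver (-2.51, SE 0.73, adjusted p = 0.119 in edgeR). WT 6 lay far above the other WT livers.

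A list of ER stress sensors, transcription factors and their regulators did not lean that way. Besides sensors and factors it holds the regulators Ppp1r15a, Ppp1r15b and Trib3 and the protease genes Mbtps1 and Mbtps2. The 13 genes had a median of 0.078 with 0 called. Creb3l3, a liver-enriched factor of the ER membrane, had the smallest p, at -0.45 (SE 0.17, adjusted p = 0.219 in edgeR). The other two at an unadjusted p under 0.05 were positive. Atf4, the factor downstream of PERK, had 111, 100.3 and 80.7 CPM in R135W liver and 75.9, 83 and 72.1 CPM in WT liver (0.34, SE 0.14, adjusted p = 0.264 in edgeR). Its target Ddit3, which encodes CHOP, had 21.4, 14.9 and 13.6 CPM in R135W liver and 15.1, 9.6 and 9.14 CPM in WT liver (0.55, SE 0.24, adjusted p = 0.279 in edgeR). In both genes the groups overlap. Among 8 subunits of the cytosolic chaperonin TRiC 0 were positive, with a median of -0.082 and 0 called. Other cytosolic chaperones had 0 of 26 called with a median of -0.034. The heat shock factor list, which holds Hsf1, Hsf2, Hsf4 and the factor-binding protein gene Hsbp1, had 0 of 4 called with a median of -0.053.

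Grpel2, the paralog of Grpel1 and a nucleotide exchange factor of mitochondrial HSP70, was the only called gene of 21 further mitochondrial chaperones and proteases. That is 4.76% of the list, near the 3.28% of all genes called in liver. Grpel2 fell to 41.6, 39.6 and 44.5 CPM in R135W liver, against 80.7, 59.9 and 57.5 CPM in WT liver, which is -0.66 on the log2 scale (SE 0.15, adjusted p = 0.0493 in edgeR). DESeq2 called it too (adjusted p = 0.00361). The call was lost in limma-voom (adjusted p = 0.0563), with age as a covariate (0.082) and without any single liver (0.0722 to 0.153).

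In gastrocnemius the changes of the members with R135W were small in all 3 compartments. Dnajb9 was the only member called, lower in R135W muscle, while 11 of the 18 ER genes had a positive and 7 a negative log2 fold change. By edgeR's test on the 6 muscle libraries 1 of 44 members was called, and lower, where 0.875% of 13826 genes were called and 0.333% were lower, and 3 members stood at an unadjusted p under 0.05, against 11.5% of all genes. Median log2 fold changes were 0.0084 for ER genes, -0.045 for cytosolic genes and -0.063 for mitochondrial genes, against -0.00 over all genes tested. The counts of members are near those of genes at large.

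Dnajb9 (chr12:44205897-44210068, mm10), which returns BiP to the sensor IRE1 and so restrains it, fell to 34.3, 32.8 and 35.3 CPM in R135W muscle, against 44.7, 45.1 and 40.5 CPM in WT muscle. The highest R135W value lies below the lowest WT value. This is -0.36 on the log2 scale (SE 0.066, adjusted p = 0.0438 in edgeR), and DESeq2, which called 1.98% of all muscle genes, gave an adjusted p of 0.00992. The call was lost in limma-voom (adjusted p = 0.0504), with all 12 libraries in the edgeR fit (0.712) and without any single muscle library (0.0792 to 0.24), where the log2 fold change stayed between -0.40 and -0.33. In liver its log2 fold change was -0.36 (SE 0.17), with 43.9, 47.2 and 35.8 CPM in R135W and 44.6, 50.8 and 66.8 CPM in WT, groups that overlap.

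Herpud1 was the second ER gene to separate the muscles, with 108, 99.4 and 108 CPM in R135W muscle and 114, 136 and 135.3 CPM in WT muscle. Its log2 fold change of -0.30 (SE 0.081) had a p of 0.00463 and an adjusted p of 0.179 in edgeR. Pdia4 went the other way, with 12.8, 12.6 and 13.4 CPM in R135W muscle and 10.5, 11.1 and 10.5 CPM in WT muscle (0.26, SE 0.083, adjusted p = 0.262 in edgeR). Pdia6 and Creld2 were apart and higher in R135W muscle as well, at 0.14 (SE 0.073) and 0.30 (SE 0.13). Hspa5 gave 173, 178 and 210.4 CPM in R135W muscle and 199, 181 and 175 CPM in WT muscle, a log2 fold change of 0.00 (SE 0.082). Hspa5 thus stood level between genotypes in muscle, within that error, while its cochaperone gene Dnajb9 was lower. Other partners of BiP were not lower: Dnajc3 stood at 0.075 (SE 0.073), Dnajb11 at 0.038 (SE 0.074), Sdf2l1 at 0.16 (SE 0.19) and Hyou1 at 0.062 (SE 0.069).

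**Figure D4:**
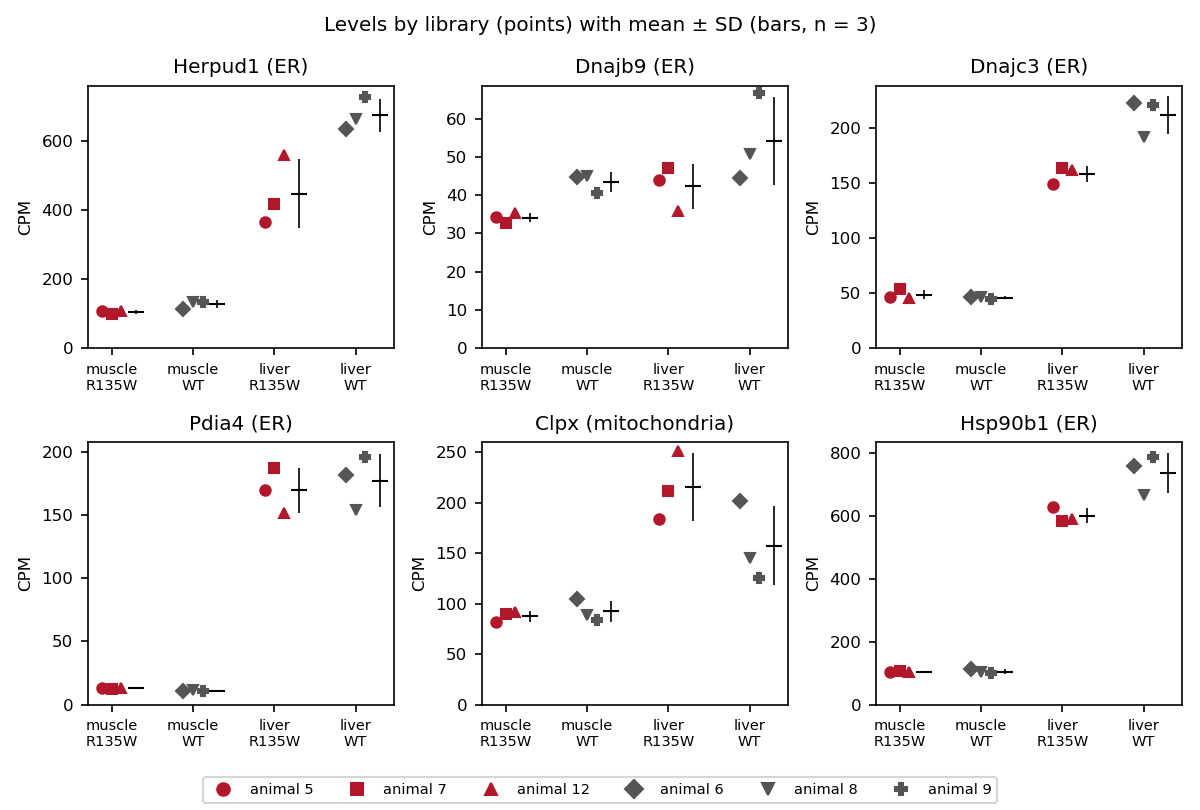
CPM of 6 members in the 12 libraries, with R135W in red left of WT in grey for gastrocnemius (muscle) and liver; symbols mark the animal, and bars to the right of the points give the mean ± SD of 3 animals. Herpud1 lies lower in all R135W libraries of either tissue, the Dnajb9 groups are apart in muscle and overlap in liver, and the Dnajc3 and Hsp90b1 groups are apart in liver and overlap in muscle.

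Cytosolic genes did not separate the muscles: 0 of 12 were apart. Those with the smallest p were Hsph1, the HSP110 exchange factor, with 76.2, 82.4 and 70.4 CPM in R135W and 82.3, 75.8 and 86.9 CPM in WT (-0.11, SE 0.079), and the inducible HSP70 gene Hspa1a with 12.7, 10.2 and 7.73 CPM in R135W and 8.88, 12.2 and 13 CPM in WT (-0.17, SE 0.19). The abundant Cryab gave 517, 530.2 and 481 CPM in R135W muscle and 456, 498 and 501 CPM in WT muscle (0.059, SE 0.069). R135W 12 had the lowest level for 7 of 12 cytosolic genes in muscle and for 7 of 12 in liver. Without its muscle library the cytosolic median was 0.023 instead of -0.045, and Hspa1a stood at 0.0024 instead of -0.17.

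Mitochondrial genes in muscle were negative in 10 of 14 cases by small amounts, from -0.14 to 0.09. Hspa9 gave 453, 445 and 433 CPM in R135W muscle and 506, 498 and 453 CPM in WT muscle (-0.14, SE 0.064, adjusted p = 0.437 in edgeR). Hspd1 gave 196, 188 and 182 CPM in R135W muscle and 217, 196 and 198 CPM in WT muscle (-0.12, SE 0.065). Both sets of muscles touch or overlap. Yme1l1, the i-AAA protease, gave 75.5, 76.6 and 68.2 CPM in R135W muscle and 80.1, 77.8 and 78.9 CPM in WT muscle (-0.12, SE 0.065), and with Afg3l2 and Dnaja3 it was apart and lower. Counted over all members, 3 were apart and higher, against 9.1% of all genes, and 5 apart and lower, against 7.14%. Herpud1 and Dnaja3 were apart and lower in both tissues, which come from the same animals. Dnaja3 in muscle differed by only -0.063 (SE 0.053). How many of all genes were apart and lower in both tissues was not counted, so nothing is read from this overlap.

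The related gene lists gave no calls in muscle. Tested were 25 further ER folding and degradation genes, 12 genes of sensors, transcription factors and their regulators, and 28 cytosolic chaperones. The others were 8 TRiC subunits, 4 genes of the heat shock factor list (with Hsbp1) and 21 mitochondrial chaperones and proteases. In each of these 6 lists 0 were called and 0 stood at an unadjusted p under 0.05 in edgeR. Ern1, the gene of IRE1, had the smallest p of the sensors, at -0.17 (SE 0.087, adjusted p = 0.514 in edgeR). In the same muscles 5 endothelial markers summed to 240.3 to 263 CPM in R135W and 185 to 204 CPM in WT, with 1 of 5 called (Kdr), and none at 0. All 5 were higher at an unadjusted p under 0.05 in edgeR, where 11.5% of all genes passed in either direction. Of 7 slow and oxidative fibre markers 4 were lower at an unadjusted p under 0.05 and 0 called, with sums of 4698 to 5538 CPM in R135W and 4947 to 5470 CPM in WT. Most of the slow fibre sum is Myh2, at 3447, 3812 and 3895 CPM in R135W and 3286, 3557 and 3379 CPM in WT. Of the 7 markers 6 had a negative and 1 (Myh2) a positive log2 fold change. The part of the endothelial and fibre markers in the Dnajb9 value was not tested.

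**Figure D5:**
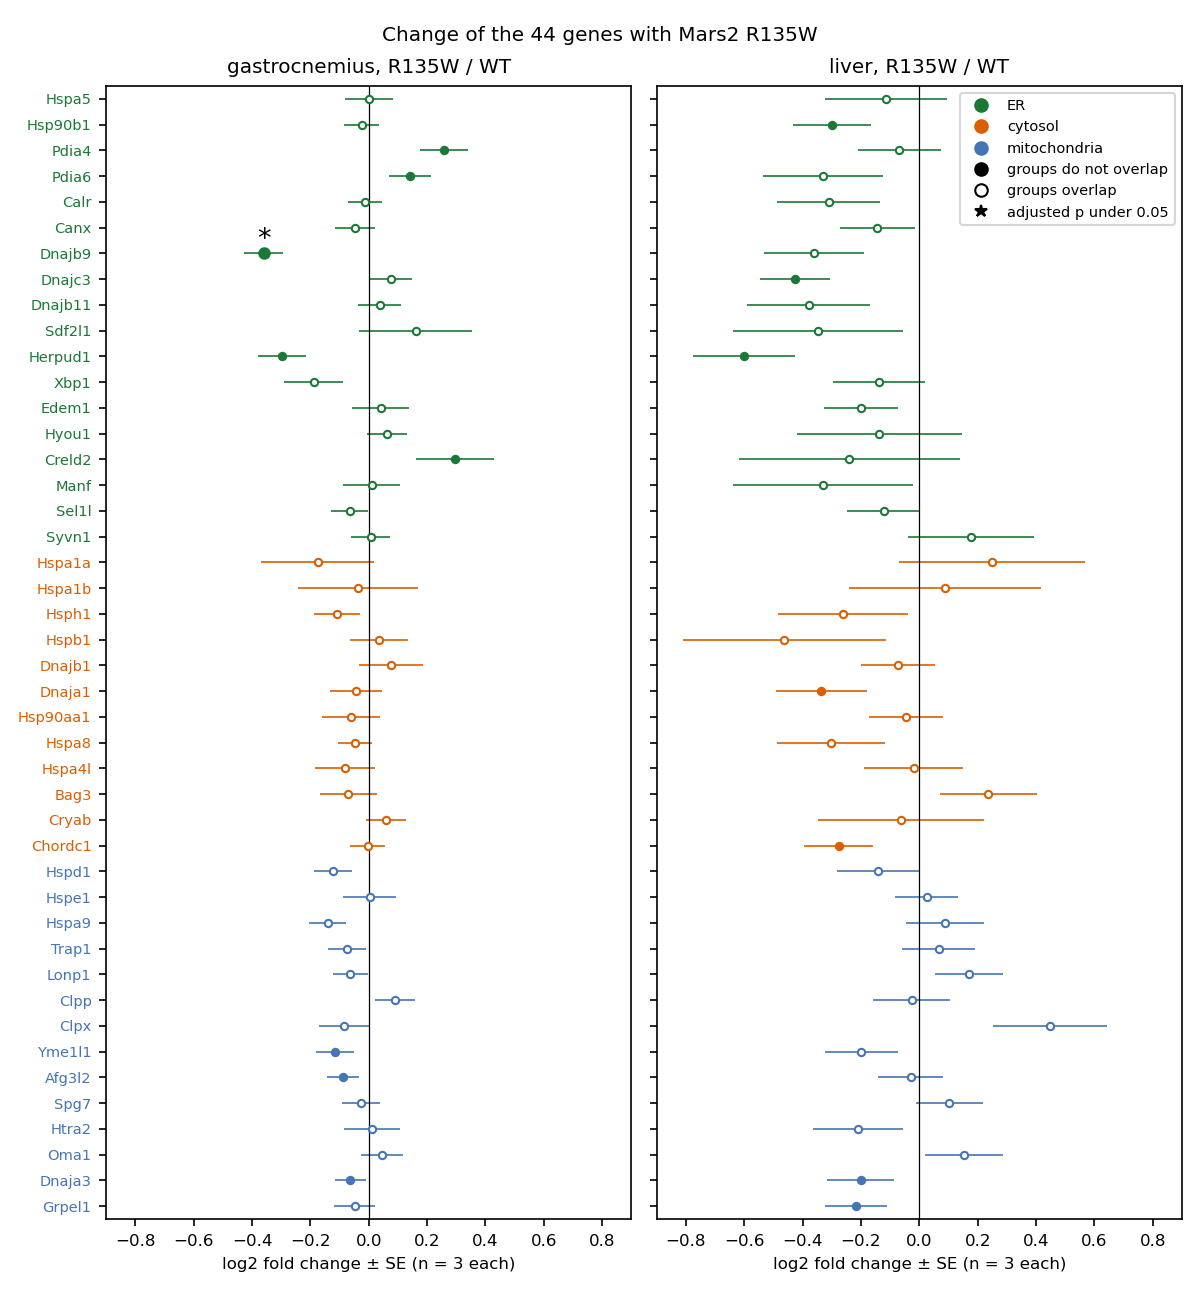
Log2 fold change of R135W over WT with its SE for the 44 genes in gastrocnemius (left) and liver (right), 3 animals a group; filled points mark genes whose R135W and WT libraries do not overlap and the star an adjusted p under 0.05. In liver 17 of the 18 ER genes lie left of 0 with wide errors, and in gastrocnemius the errors are smaller and Dnajb9 alone carries a star, at -0.36.

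Whether the variant acts differently in the 2 tissues was tested as the interaction of genotype and tissue, gastrocnemius minus liver, in 1 fit of all 12 libraries. None of the 44 members was called in edgeR, where 0.13% of 15414 genes were, and 4 stood at an unadjusted p under 0.05, against 9.95% of all genes. limma-voom called 0 and DESeq2 called 1, where it called 1.19% of all genes. That was Dnajc3, with an interaction of 0.51 (SE 0.13, adjusted p = 0.181) in edgeR and an adjusted p of 0.0167 in DESeq2. Its log2 fold change was 0.075 (SE 0.073) in muscle and -0.43 (SE 0.12) in liver, with 46.8, 53.6 and 46 CPM in R135W muscle and 46.5, 46.9 and 44.4 CPM in WT muscle. Clpx had an interaction of -0.53 (SE 0.23), Pdia4 of 0.33 (SE 0.15) and Chordc1 of 0.28 (SE 0.12).

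Some members share reads or location with other genes. Hspa1a and Hspa1b are near-identical copies, and their counts depend on how the aligner placed shared reads. The ratio of Hspa1a to Hspa1b was 0.964 to 1.03 in R135W muscle, 1.07 to 1.09 in WT muscle, 0.217 to 0.293 in R135W liver and 0.211 to 0.256 in WT liver, and their sum was 20.6 ± 5.29 CPM in R135W muscle, 21.9 ± 4.3 in WT muscle, 26.2 ± 7.19 in R135W liver and 23.9 ± 9.73 in WT liver (SD, n = 3 each). So Hspa1a alone is higher in WT muscle than in WT liver and Hspa1b alone lower, while the sums lie within an SD of each other. Fragments were counted without regard to strand and for every gene they overlap. Exons of other genes cover 31% of the Htra2 exons (Loxl3), 26.0% of Dnaja1 (Smu1), 20.6% of Cryab (Hspb2) and 12.2% of Grpel1 (Tada2b), whose values are uncertain. These are shares of exon length, and the share of counts that comes from the other gene was not measured. Hspd1 and Hspe1 lie 149 kb and 146 kb from Mars2 on chromosome 1, near enough to be inherited together with the variant. The members rest on 58 (Sdf2l1) to 27460 (Hspa8) counts per library in muscle and 48 (Hspa1a) to 35145 (Hspa8) in liver.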

How the data were processed

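RNA-seq was used from liver and gastrocnemius of 3 R135W and 3 WT mice (12 libraries). The deposited values are raw counts per gene symbol: per the file headers, featureCounts 1.5.2 was run by the authors on paired reads and UCSC gene models of mm10, keeping primary alignments, ignoring strand and letting a fragment count for every gene whose exons it overlaps. The submitters' processing notes name STAR 2.4.0. Replicates were not pooled and no normalization was applied to the deposited counts.

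Genotype was tested in each tissue on its 6 libraries, and the tissue differences and the interaction on all 12, in edgeR 4.0.16 (R 4.3.3), using the quasi-likelihood F test after filterByExpr by group and TMM scaling, with Benjamini-Hochberg adjustment over all tested genes and a threshold of 0.05. SE is the log2 fold change over the square root of F. Groups are called apart or not overlapping when every library of one lies above every library of the other in CPM. Animal numbers in the labels pair the 2 tissues of an animal, so a replicate block was tried; deviations of same-animal libraries from their group means correlated at -0.00044 to 0.0955, those of different animals at -0.103 to 0.0935. Alternatives were RLE factors, DESeq2 1.42.0, limma-voom (limma 3.58.1), no filter or at least 1 CPM in 3 libraries, age, all 12 libraries for the genotype tests, the block, an unadjusted threshold and leaving out each library. The tests were also run on simulated counts with planted changes larger than any genotype change of a member. These counts took their spread from all 12 libraries at once. They therefore do not check how well genotype changes of the size seen here are found. Promoters were RefSeq windows (GRCm38.p6), searched on both strands; member genes with no window were not analysed for motifs.

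The 44 genes, the related lists, the markers and the tests were chosen with earlier results of these data known. Named with values in every library were called members, the 3 smallest genotype p per compartment and tissue, the 3 largest WT tissue differences per compartment and direction, and members apart by at least 0.5 log2; of each related list, called genes or the smallest p. Hspa5, Xbp1, Creld2, Pdia6, Derl3 and others outside this rule were added after their values were seen. Hepatocyte, muscle fibre, slow fibre, macrophage, endothelial and clock lists are described where they differ between groups; B cell, T cell, fibroblast, adipocyte and cold-inducible lists are given in the closing section. Counting depth limits only the lowest members.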

Additional observations from a re-analysis of the deposited data

How the results depend on the processing

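Of the counts of called members and the compartment medians, 144 values under the alternatives kept their size and 16 moved. In liver, where edgeR called 0 members, an unadjusted p under 0.05 gave 4, DESeq2 2 and the fit of all 12 libraries 2 (Herpud1 and Dnajc3 in both); without 1 library the count was 0 to 1. In gastrocnemius, where edgeR called 1, an unadjusted p gave 3, and limma-voom and the fit of all 12 libraries 0; without 1 library it was 0 to 0. For the interaction (0 called) an unadjusted p gave 4 and DESeq2 1. The muscle cytosolic median ran from -0.057 to 0.023 without 1 library, and Hspa1a in muscle from -0.36 to 0.0024, its sign turning without R135W 12; the cause was not tested.

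With the animal as a replicate block in edgeR, 37 members were called in the WT tissue comparison instead of 39, Dnajb9 (adjusted p = 0.077) and Hspa9 (0.0737) being lost. In the R135W tissue comparison 37 were called instead of 38, with Afg3l2 lost (0.0642), and in the interaction 0 as before. RLE factors, either filter and age changed no count of called members by over 1.5 times. With 3 animals a group, single livers decide much: WT 9 was the highest for 12 of 18 ER genes. Without 1 liver the liver ER median ran from -0.40 to -0.12 and the cytosolic median from -0.20 to 0.00051.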

Other observations

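B cell and plasma cell markers summed to 255 to 374 CPM in R135W liver, against 215 to 279.5 CPM in WT liver, with 0 of 7 called in edgeR and 4 at an unadjusted p under 0.05. T cell and NK cell markers summed to 10.3 to 11 CPM in R135W liver, against 5.58 to 7.18 CPM in WT liver, with 2 of 8 called higher. Fibroblast and stellate markers summed to 210.3 to 227 CPM in R135W liver and 174 to 217 CPM in WT liver, with 1 of 5 called higher. The cold-inducible genes Cirbp and Rbm3 summed to 66 to 73.5 CPM in R135W liver and 50.5 to 67 CPM in WT liver, with 0 of 2 called. In gastrocnemius adipocyte markers summed to 81.7 to 108 CPM in R135W and 89.3 to 98.6 CPM in WT, with 0 of 4 called.

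Differences between tissues extended to the related lists. Of 28 other cytosolic chaperones and cochaperones 20 were higher and 3 lower in WT gastrocnemius than in WT liver, with a median log2 difference of 0.61, and of 27 other ER folding and degradation genes 3 were higher and 23 lower, with a median of -1.89, by edgeR's test on all 12 libraries. Among 21 further mitochondrial chaperones and proteases 11 were higher and 7 lower in WT muscle, with a median of 0.22. The 8 subunits of the cytosolic chaperonin TRiC had 4 higher and 1 lower. Of all 15414 genes tested 41.2% were higher and 40.9% lower.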
